A study of Homo sapiens with 6 samples.

Results

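The NR4A orphan nuclear receptors are 3 genes, NR4A1, NR4A2 and NR4A3, and their surroundings were examined in a merged list of H3K27ac peaks from clear cell sarcoma (CCS) cells. Peaks were assigned to them when they overlapped the gene body in the GENCODE version 44 annotation or lay within 100 kb of it, and a promoter peak was one with any base within 3 kb of a transcript start site of the gene. By this rule 21 of the 30784 peaks in the list belonged to the family: 10 to NR4A1, 8 to NR4A2 and 3 to NR4A3. The source was SU-CCS-1, an established human CCS line with the genotype EWSR1::ATF1, sampled as 3 H3K27ac ChIP-seq replicates and 3 input replicates that all carried the fusion, from pellets of that 1 line. Input is fragmented chromatin that was not immunoprecipitated. No line without the fusion and no knockdown was among the 6 samples, so nothing in these data tells what the fusion contributes to a peak. The authors deposited 1 peak list with no score, height or value per sample, so every quantity here is a position, a width or a count with no replicate error, and no difference was tested. Coordinates are hg38, counted from 1.

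H3K27ac, acetylation of lysine 27 of histone H3, marks active promoters and enhancers. The NR4A proteins, also known as Nur77 (NR4A1), Nurr1 (NR4A2) and NOR1 (NR4A3), are nuclear receptors. Their ligand pocket is closed in some known structures, and their activity is held to follow mainly from how much of them a cell makes. They are immediate early genes: cAMP and calcium signals switch on their transcription within minutes, and in many cell types this runs through cAMP response elements bound by CREB, ATF1 and CREM. The EWSR1::ATF1 fusion keeps the DNA-binding domain of ATF1, which recognises the same element.

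Defining genes of the line were looked up first. All 5 CCS markers had a promoter peak, where 63.4% of protein-coding genes had one. They were SOX10 and MITF, transcription factors of the melanocyte lineage, PMEL and MLANA, melanosome proteins, and S100B, a calcium-binding protein used in diagnosis. The canonical start itself lay in a peak at SOX10 and MITF only. Coverage of the 6 kb around the canonical start ran from 100% at SOX10 to 0% at MLANA, whose peak lay near another start. The median was 16.8%, close to the 15.3% of all protein-coding genes. None of the 5 markers of other cell types had a promoter peak: MYOD1 and MYOG of skeletal muscle, PTPRC of leukocytes, PECAM1 of endothelium and EPCAM of epithelium. A gene without a peak had signal below the calling cutoff, or had its peak removed with unreliable regions, and is not thereby shown to lack the mark.

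All 3 NR4A genes had a promoter peak, against 63.4% of the 20033 protein-coding genes. All 3 had at least 2 promoter peaks, which held for 19.2% of protein-coding genes, and in all 3 the canonical start site lay inside a peak, which held for 53.5%. The number of promoter peaks depends on annotated starts, of which NR4A1 has 19 and NR4A2 14, and on short gaps. The 2 promoter peaks of NR4A3 stood 270 bases apart and became 1 peak of 6240 bases when gaps of up to 1 kb were joined. The genes differed in layout. NR4A3 had nearly its whole start region covered and almost nothing else nearby. NR4A2 had a broad peak at its canonical start and another at its outermost start. NR4A1 had a chain of narrower peaks along its upstream starts, with its broadest peak beyond the 3′ end.

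**Figure D1:**
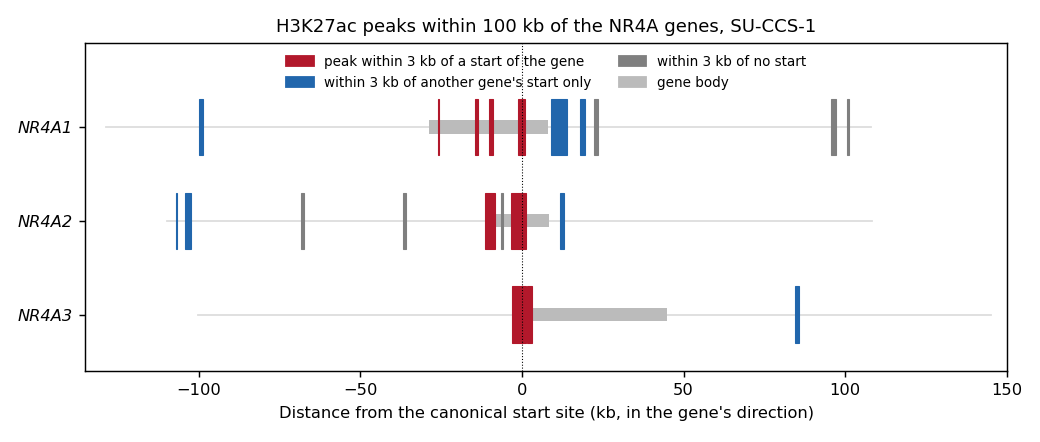
H3K27ac peaks within 100 kb of each NR4A gene, drawn to scale by distance in kb from the canonical start site in the direction of transcription, with the gene body in light grey and the searched span as a thin line. Of the 21 peaks, 8 (red) lay within 3 kb of a start of the gene itself, 7 (blue) within 3 kb of a start of another gene only and 6 (dark grey) within 3 kb of no annotated start.

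The promoter sequences show what lies under these peaks. RefSeq (GRCh38.p14) gave windows from 250 bases before to 50 bases after a start site for NR4A1, which had 2, and NR4A3, which had 1. All 3 were identical to hg38, and NR4A2 had no entry. They are shown because they contrast a covered promoter that carries cAMP response half-sites with a covered and an uncovered promoter that carry none. Capitals mark TGACG, the half-site of the cAMP response element, on either strand, so that the reverse strand reads CGTCA. They run in order along chr9:99821635-99821934, chr12:52037465-52037764 and chr12:52022582-52022881, all on the plus strand.
NR4A3, canonical start: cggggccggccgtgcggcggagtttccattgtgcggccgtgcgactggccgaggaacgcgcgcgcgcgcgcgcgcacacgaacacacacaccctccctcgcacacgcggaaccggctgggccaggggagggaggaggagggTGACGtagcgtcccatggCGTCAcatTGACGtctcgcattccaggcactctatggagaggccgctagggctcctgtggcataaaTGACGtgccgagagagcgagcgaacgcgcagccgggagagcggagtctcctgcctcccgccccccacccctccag
NR4A1, inner upstream start: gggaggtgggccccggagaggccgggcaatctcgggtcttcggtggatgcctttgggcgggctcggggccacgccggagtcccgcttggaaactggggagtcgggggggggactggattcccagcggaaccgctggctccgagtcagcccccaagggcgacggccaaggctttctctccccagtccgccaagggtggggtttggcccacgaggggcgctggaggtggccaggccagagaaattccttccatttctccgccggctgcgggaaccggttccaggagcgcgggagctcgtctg
NR4A1, outermost start: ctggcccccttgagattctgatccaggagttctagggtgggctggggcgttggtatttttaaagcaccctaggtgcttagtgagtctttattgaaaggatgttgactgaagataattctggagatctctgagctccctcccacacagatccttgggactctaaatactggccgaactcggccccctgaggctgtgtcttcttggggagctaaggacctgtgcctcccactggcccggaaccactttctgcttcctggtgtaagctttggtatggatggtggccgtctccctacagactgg

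The NR4A3 window lay wholly inside a peak. It held 4 copies of TGACG, beginning 109, 91, 83 and 25 bases before the start site at 99821885, with the copy at 91 on the opposite strand. TGACG occurred at least once in 24.6% of the 35114 RefSeq promoter windows and 4 or more times in 0.313% of them. The window was rich in CpG, with 38 dinucleotides against a median of 14 over all windows, and its GC content was 69.7% against a median of 58.7%. TGACG itself contains a CpG, so richness in CpG and a high count of half-sites are not separate facts.

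The inner upstream window of NR4A1 lay wholly inside a peak too, with 25 CpG and the same GC content, 69.7%, but no TGACG. The outermost NR4A1 window had 5 CpG and a GC content of 53.3%, and none of its bases lay in a peak. Neither held the full element TGACGTCA, which occurred in 1.85% of the windows, and no window of the 3 held TGAGTCA, the AP1 site, AAAGGTCA, the element that NR4A proteins bind as monomers, or TATAAA.

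The canonical starts of NR4A1 and NR4A2 are not those of the RefSeq windows, so the same 300 bases were counted at the canonical start of every protein-coding gene in hg38. Each NR4A gene held 4 copies of TGACG there. Among all 20033 genes, 99 (0.494%) held 4 or more, and 29.3% held at least 1. This window was chosen after seeing the data. Within 500 bases to either side NR4A1 still held 4, a count that 2.99% of genes reached, while NR4A2 and NR4A3 held 5, which 0.958% reached, and 54.2% of genes held at least 1. In NR4A1 the copies began 233, 213, 70 and 41 bases before the start, all in the same orientation. In NR4A2 they began 137, 134, 52 and 42 bases before it, and the first pair overlapped to form a full TGACGTCA, a palindrome that counts as a half-site on each strand. NR4A2 was the only family member with the full element in this window, which 2.69% of genes have. Within 500 bases of the canonical start NR4A1 held 2 matches to the MEF2 site, the element of a calcium-responsive factor, and its relatives held none. At least 1 match was held by 1.14% of protein-coding genes. The NR4A1 matches began 298 and 265 bases before the start, in the peak. A match of letters is a description, and no binding was measured here.

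NR4A3 (ENSG00000119508.18), chr9:99821855-99866891 on the plus strand, had the most completely covered start region. Its promoter peaks were chr9:99818701-99823120, 4420 bases, and chr9:99823391-99824940, 1550 bases. Between them ran a gap of 270 bases, beginning 1236 bases after the canonical start, that held none of the 5 motifs searched under peaks. These peaks covered 95.5% of the 6 kb window reaching 3 kb to either side of the canonical start, higher than in 99.7% of protein-coding genes, whose median was 15.3%.

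The larger NR4A3 peak was wider than the widest promoter peak of 95% of the 12701 genes that have one, where the median was 1600 bases. Covered bases were nearly balanced about the start, with 3184 in the 10 kb before it and 2785 in the 10 kb after it. A divergent lncRNA, ENSG00000237461, starts on the opposite strand 1964 bases before NR4A3 and inside the same peak, so the acetylation there cannot be told apart between the pair.

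Beyond this block the NR4A3 locus was sparse. Of its 3 annotated start sites the 2 outer ones lay in the larger peak, and the last, at 99826727 inside the gene, lay in no peak and 1787 bases from the nearest. Only 6.25% of the 45 kb gene body was covered. The next peak upstream was 449340 bases away, and the single other peak within 100 kb, chr9:99906341-99907460 of 1120 bases, lay at the start of STX17, which encodes a syntaxin of autophagosomes. NR4A3 thus had 3 peaks within 100 kb, against a median of 4 over protein-coding genes and 8 and 10 for its relatives.

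NR4A2 (ENSG00000153234.16), chr2:156324437-156342348 on the minus strand, had promoter peaks at its canonical start and at its outer start. Its canonical start at 156332721 lay in chr2:156331511-156335980, 4470 bases, which was wider than the widest promoter peak of 95.1% of genes with one. The outer start at 156342348 lay in chr2:156340891-156344030, 3140 bases. A further peak, chr2:156338631-156339300 with 670 bases, sat between these promoters within 3 kb of no annotated start.

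Coverage of the NR4A2 start window was 70.2%, higher than in 97.9% of protein-coding genes, and 36.8% of the 17.9 kb gene body was covered, higher than in 95.7%. The covered bases lay on the upstream side: 5760 of them in the 10 kb before the canonical start and 1210 in the 10 kb after it, an upstream share of 82.6%, where the median gene with any coverage had 43.8%. Of the 14 start sites, 8 lay in peaks, and the 6 that did not all lay 723 to 3096 bases downstream of the canonical peak.

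The peak at the canonical start of NR4A2 contained 8 half-sites, and the full element described above lay in it at chr2:156332851-156332858. In the middle 4470 bases of all peaks at least that wide, 6.21% held a full element and 90% at least 1 half-site. The peak at the outer start held 5 half-sites, 4 of them between 9756 and 9851 bases before the canonical start and so just upstream of the outer start. In the middle 3140 bases of all peaks at least that wide, 83.5% held at least 1 half-site. Half-sites thus lay just upstream of both NR4A2 starts. For the outer start, the share of other starts with as many was not computed.

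The other NR4A2 peaks were narrower. The peak at chr2:156319721-156320960, 1240 bases, lay downstream of the gene at the start of the lncRNA ENSG00000282440, and the next peak beyond it was 2446960 bases away. Upstream, peaks of 740 and 1150 bases lay 36.3 and 67.9 kb from the canonical start and near no annotated start. The remaining peaks, of 1920 and 410 bases, lay at GPD2, the mitochondrial glycerol phosphate dehydrogenase, whose start is 104 kb upstream.

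NR4A1 (ENSG00000123358.20), chr12:52022832-52059507 on the plus strand, had 4 promoter peaks. The peak at its canonical start of 52051442 was chr12:52050111-52052300, 2190 bases, and was the widest of the 4. Peaks of 1060 and 1070 bases covered inner upstream starts, with midpoints 14001 and 9556 bases before the canonical start. The fourth, of 420 bases, lay 2549 bases past the outermost start at 52022832, which was itself in no peak.

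The canonical promoter peak of NR4A1 was narrower than those of its relatives. It was wider than the widest promoter peak of 73.5% of genes with one, and the start window was 36.5% covered, higher than in 83.5% of protein-coding genes. In the smaller window of 1 kb to either side, coverage was 92.9% for NR4A1 and 100% for both relatives. At the outermost NR4A1 start the 3 kb window was 7% covered, higher than in 42.7% of genes measured at their own outermost start.

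NR4A1 also had the largest number of annotated starts. Of its 19 start sites 9 lay in peaks: 5 of them in the canonical peak and 4 in the inner upstream peaks. The other 10 lay outside, 6 of them downstream of the canonical start and 1118 to 3845 bases from the nearest peak.

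The widest of the 21 peaks lay 893 bases beyond the 3′ end of NR4A1, at chr12:52060401-52065300, with 4900 bases. It was wider than 97.2% of the 18856 promoter-class peaks in the series, a class it entered because an antisense lncRNA, NR4A1AS, starts 1069 bases before it. Its midpoint lay 11.4 kb after the canonical start. It held 7 half-sites, 2 AP1 sites and a full TGACGTCA, which 6.82% of the middle 4900 bases of peaks at least that wide hold.

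In that peak the full element, an AP1 site and a further half-site lay within 54 bases of each other, beginning 12841 bases after the canonical start. The 120 bases around them, chr12:52064243-52064362 on the plus strand in hg38, are shown because they hold the only full element found under an NR4A1 peak. Capitals mark, in order, TGACGTCA, TGAGTCA and TGACG.
NR4A1, downstream peak: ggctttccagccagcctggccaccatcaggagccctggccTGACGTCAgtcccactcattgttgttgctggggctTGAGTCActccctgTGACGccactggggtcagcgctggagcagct

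Next to it stood ATG101, an autophagy gene, whose start 18.5 kb after that of NR4A1 carried a peak of 1460 bases, with a further peak of 1040 bases 22.9 kb after it. Peaks of 1520 and 630 bases lay near the far edge of the search, 96.3 and 101 kb away and at no annotated start. On the upstream side a peak of 1360 bases lay at the start of ACVR1B, a type I activin receptor, 99.7 kb before NR4A1. TAMALIN and SMIM41, the other protein-coding genes starting within 100 kb, had no promoter peak.

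NR4A1 lies on the chromosome of ATF1, with its canonical start 1.29 Mb nearer the 12q telomere than that of ATF1 (chr12:50763710-50821162, plus strand), the partner gene of EWSR1 (chr22:29268009-29300525) in the fusion. The peak list does not separate alleles, and whether the NR4A1 peaks lie on the rearranged chromosome cannot be told from it.

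**Figure D2:**
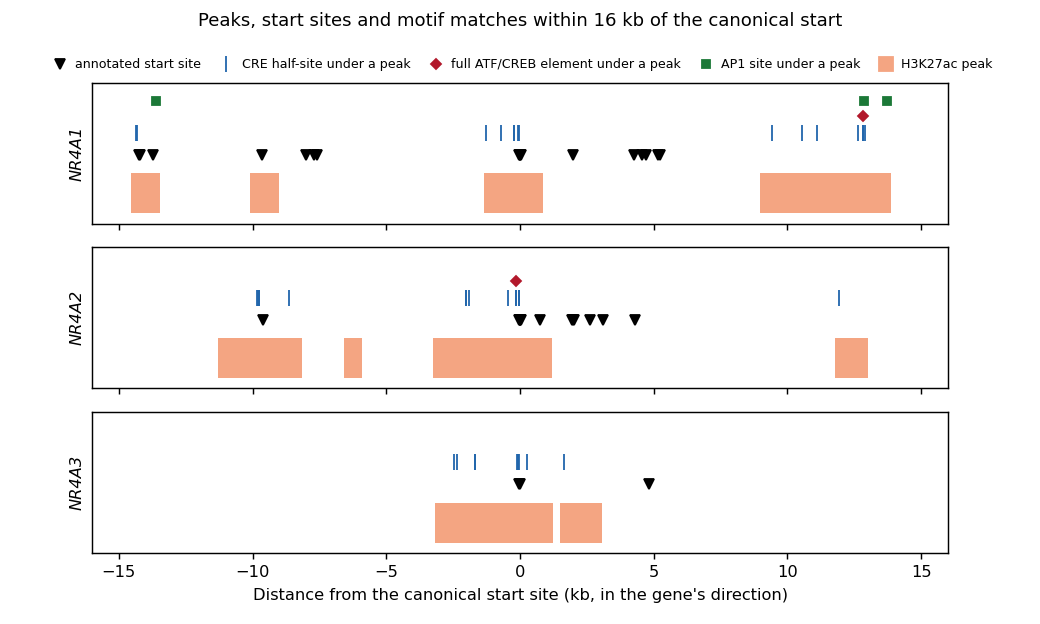
Peaks (orange), annotated start sites (black triangles) and motif matches under peaks (blue, half-site TGACG; red, full TGACGTCA; green, AP1 site TGAGTCA) within 16 kb of each canonical start, by distance in kb in the direction of transcription. Half-sites gather just upstream of each canonical start, and the full elements lie 137 bases before the NR4A2 start and 12841 bases after the NR4A1 start.

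Across the 21 peaks, 36480 bases in all, TGACG occurred 46 times in 12 peaks. That was 12.6 per 10 kb, against 6.65 in all peaks and 7.71 in promoter-class peaks. In middle stretches of all peaks at least as wide, the share with at least 1 copy was 22.4% for 410 bases and 92.4% for 4900. A count of peaks with a copy thus depends on width, and 12 of 21 is not read as an excess. The most copies per peak, 6 to 9, lay in the canonical peaks of the 3 genes and the downstream NR4A1 peak. The full element occurred 2 times, 0.548 per 10 kb against 0.191 in all peaks and 0.238 in promoter-class peaks, a count too small to rank.

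The other elements were rarer or about as dense. TGAGTCA occurred 6 times, 1.64 per 10 kb against 1.5 in all peaks. TGANNTCA, the wider pattern of which TGACGTCA is one case, occurred 6 times, 1.64 per 10 kb against 4.66. AAAGGTCA was not found, where its density in all peaks was 0.419 per 10 kb.

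**Figure D3:**
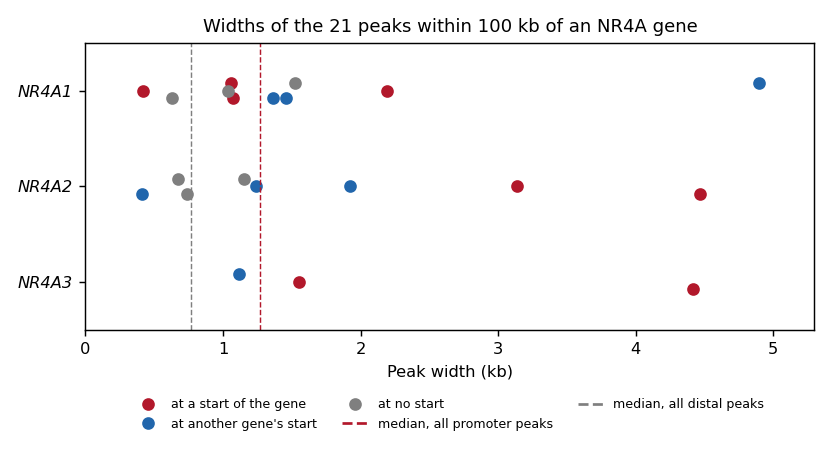
Width in kb of each of the 21 peaks, by gene, coloured as at a start of the gene (red), at the start of another gene (blue) or at no start (grey), with small vertical offsets only to separate points. Dashed lines give the median width of all promoter-class peaks, 1270 bases, and of all distal peaks, 770 bases.

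Peak widths at the family ran from 410 to 4900 bases with a median of 1240, and 14 of the 21 (66.7%) were wider than the median of all peaks, 1060 bases. All but 6 of the 21 were promoter-class peaks, whose median over the series was 1270 bases, against 770 for distal peaks. The family median pools both classes, so it is not comparable with the median of either class alone. The 4 widest, 3140 to 4900 bases, comprised the canonical promoter peaks of NR4A2 and NR4A3, the outer promoter peak of NR4A2 and the downstream peak of NR4A1. Those of NR4A2 and NR4A3 at their canonical starts differed by 50 bases, 5 steps of the 10-base grid on which all peak ends lie, and with no replicate values they cannot be ranked. Summed widths were 15650 bases for NR4A1, 13740 for NR4A2 and 7090 for NR4A3.

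Stitching was applied as in a super-enhancer search, joining peaks no farther apart than the study's joining distance. The 17049 resulting regions were ranked by summed peak width, since the list holds no signal, and 879 lay past the point where the ranked curve reaches a slope of 1, at 7.97 kb. Regions at NR4A1 and NR4A2 lay past it, and that at NR4A3 did not, where 7.58% of protein-coding genes overlapped such a region. Rank by width is not rank by signal, and these are not super-enhancer calls.

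The NR4A1 region, chr12:52025381-52074830, joined 7 peaks with 12.1 kb of summed width over 49.5 kb and ranked 410th. Of that width 4.74 kb overlapped NR4A1, 4.9 kb was the downstream peak and 2.5 kb overlapped ATG101. Without the ATG101 peaks 9.64 kb remained, still above 7.97 kb. With a joining distance of 5 kb the canonical NR4A1 peak stood alone with 2.19 kb and ranked 5724th.

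The NR4A2 region, chr2:156319721-156344030, joined 4 peaks with 9.52 kb over 24.3 kb and ranked 639th. It lay past the point with 5 kb too, with 8.28 kb, but not with 25 kb. Without the peaks that lie entirely inside 2.5 kb of a start, no NR4A region lay past the point. The NR4A3 region, chr9:99818701-99824940, held 5.97 kb in 6.24 kb and ranked 1405th.

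In the 10 kb window to either side NR4A2 (34.9%) stood above NR4A3 (29.8%) and NR4A1 (21.1%), the reverse order of the first pair. The order in the 3 kb window was set against the rest of the nuclear receptors. Of the 45 other receptor genes 29 (64.4%, 95% Wilson interval 49.8 to 76.8, counting error only) had a promoter peak, close to the 63.4% of protein-coding genes. Their median start-window coverage was 11.5%, against 15.3% over protein-coding genes, and 4 of them overlapped a region past the slope-1 point. With all peaks counted, the family is thus described against a receptor class that had promoter peaks about as often as other genes. With the widest 50% of peaks 26 of the 45 had one, where 48.6% of protein-coding genes did. With the widest 25% 20 of the 45 had one, where 26.5% of protein-coding genes did, so for wide peaks the class stood above other genes.

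Among all 48 receptors NR4A3 ranked 2nd in start-window coverage, NR4A2 3rd and NR4A1 15th. Only NR1D1, the circadian repressor REV-ERB alpha, was higher than NR4A3, at 100%. Below NR4A2 followed NR2F2, an orphan receptor of mesenchyme and vessels, at 60.3%, NR2F6 at 59.5%, ESRRA, an estrogen-related receptor that drives mitochondrial genes, at 58.5%, and RXRA, the common heterodimer partner, at 57.7%. None of these values has an error, so whether neighbours in this order differ beyond replicate spread cannot be said.

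**Figure D4:**
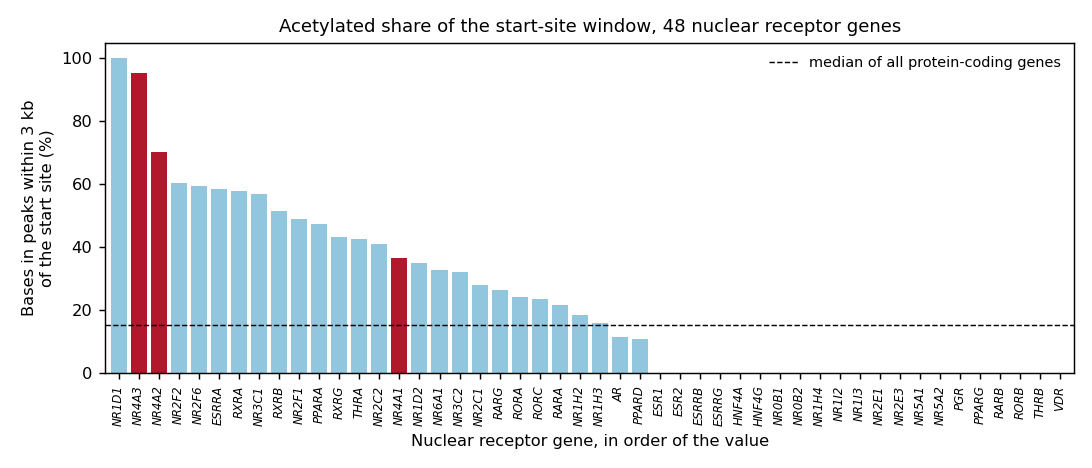
Share of the 6 kb around the canonical start that lies in H3K27ac peaks, in percent, for 48 nuclear receptor genes in order of the value, with the NR4A genes in red and the median of all protein-coding genes (15.3%) as a dashed line. NR4A3 stands 2nd, NR4A2 3rd and NR4A1 15th.

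The genes that relay cAMP and calcium signals to NR4A transcription formed the next group. All 17 had a promoter peak (95% Wilson interval 81.6 to 100), against 63.4% of protein-coding genes. Their median start-window coverage was 35.7%, against 15.3% over all protein-coding genes and 25.8% over those with a promoter peak. Of the 17, 4 overlapped a region past the slope-1 point, against 7.58% of protein-coding genes. The best covered were CREB1, the cAMP response element binding protein, at 72%, MEF2D, a calcium-responsive factor, at 65.5%, CREM at 52%, PRKAR1A, a regulatory subunit of protein kinase A, at 51.2%, and SRF, serum response factor, at 51.1%. Most of these genes are expressed in many cell types.

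Textbook NR4A target genes came last. Of 12, 3 (25%, 95% Wilson interval 8.89 to 53.2) had a promoter peak, against 63.4% of protein-coding genes, and the median coverage was 0%, against 15.3%. ENO3, the muscle enolase, stood apart at 66.4% with 2 promoter peaks, the widest of 4760 bases. POMC, the precursor of ACTH and melanocyte-stimulating hormone, had 9%, and RET, a receptor tyrosine kinase, had 1 peak of 790 bases near another of its starts and 0% at the canonical one.

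The 9 target genes without a promoter peak were TH, DDC, SLC6A3 and SLC18A2, which make or carry dopamine, CYP11B2 and HSD3B2 of steroid synthesis, and G6PC1, FBP1 and FBP2 of glucose production. These lists were drawn from textbook knowledge, with targets from tissues that include neurons, adrenal cortex, liver and, for ENO3, muscle. The listed genes were not measured in RNA here.

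Similarity of layout was measured as the bases covered in both of 2 genes as a share of those covered in either, over 20 kb centred on the canonical start. The NR4A genes were not most like each other. NR4A2 and NR4A3 shared 51.4%, NR4A1 and NR4A2 39.5%, and NR4A1 and NR4A3 27.4%. Among the 20032 other genes NR4A3 ranked 165th for NR4A2, and NR4A2 ranked 556th for NR4A3. The pairs with NR4A1 ranked lower: NR4A1 was 785th for NR4A2 and 5024th for NR4A3, and for NR4A1 its relatives were 1968th (NR4A2) and 6460th (NR4A3).

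The nearest layouts were those of genes of unlike kinds. For NR4A3 they were H2BC5, a histone H2B gene, at 88.9%, HCFC1 at 88.6% and KCTD15 at 85.6%. For NR4A2 they were INTS1 at 79.5%, NOL12 at 73.7% and ENSG00000100101 at 72.7%, and for NR4A1 ATP5F1B, an ATP synthase subunit, at 71.1%, ZBTB26 at 68.7% and CDC20 at 67.3%. These shares describe the extent of peaks alone, and with windows of 10 or 40 kb none of the nearest 3 genes of NR4A1 and NR4A2 recurred.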

How the data were processed

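Chromatin of SU-CCS-1 cells was assayed by H3K27ac ChIP-seq, with 3 ChIP and 3 input samples grouped by their titles. For alignment to hg38 the authors used BWA-MEM 0.7.10-r789. They removed duplicates, called broad peaks with MACS2 2.2.6 against input and dropped peaks in the ENCODE denylist. The peak list they deposited had 4 columns, the chromosome, start, end and name, and held no signal, score or p-value, so the depth behind each peak is unknown; the study's methods state only an approximate depth per sample. How replicates were joined is not given in the sources used here, and broad calling makes width depend on signal and on joining. The antibody's catalogue number is ab4279 in the labels, while the study's methods give ab4729 for the cell line and ab4279 for mouse tumours.

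Starts and gene bodies came from GENCODE version 44 and sequences from hg38 and RefSeq. Overlaps, stitching at 12500 bases as in the study's super-enhancer search, window coverage and motif counts on both strands were computed in Python 3.11.15 with numpy 2.4.6, after a check on simulated intervals. Percentiles refer to protein-coding genes and describe these data; no test was run. The NR4A genes and all lists were chosen with earlier results of these data known. Named were the family, protein-coding neighbours within 100 kb, the 5 best covered genes of each list with those lacking a promoter peak where 10 or fewer, and the 3 genes nearest in layout. RET fell outside this rule and was named after its values were seen, to complete a count of 3.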

Additional observations from a re-analysis of the deposited data

How the results depend on the processing

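No paired analysis was possible because the deposited list has no column per sample; for the same reason no replicate could be left out. Of 70 alternatives over 21 results, 49 stayed close to the reported value, here within 1.5 times of it. The family's total of 21 peaks was 15 within 50 kb, 30 within 250 kb and 14 among the widest 50% of peaks. With the widest 25% of peaks 20 of the other receptors (29 in all peaks) and 13 of the control genes (17 in all peaks) had a promoter peak. At that setting 26.5% of protein-coding genes had one. The widest promoter peak of NR4A3 grew to 6240 bases when gaps of up to 1 kb were joined. With only the widest 50% or the widest 25% of peaks, 1 target gene in place of 3 had a promoter peak. Those settings left 48.6% and 26.5% of protein-coding genes with one. With the widest 25% the family kept 4 of its 8 promoter peaks, and all 3 of its genes still had at least 1. Start-window coverage of NR4A1 was 92.9% within 1 kb, 21.1% within 10 kb and 7% at the outermost start. The same 3 settings gave 100%, 34.9% and 52.3% for NR4A2, and NR4A3 had 100% within 1 kb and 29.8% within 10 kb, so the order of NR4A2 and NR4A3 turned in the widest window. NR4A genes in regions past the slope-1 point fell from 2 to 1 with stitching at 5 kb (NR4A2) or 25 kb (NR4A1), and to 0 without the peaks that lie entirely inside 2.5 kb of a start. The half-site count at NR4A1 was 0 in the RefSeq windows and 4 both within 500 bases of the canonical start and in the 300 bases at that start, the latter chosen after seeing the data. What depth limits was not tested, since the list carries no counts.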
